A study of Mus musculus with 4 samples.

Results

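The genes that make, pack, carry and break down the inhibitory transmitter GABA were examined in bulk RNA-seq of neurons derived from mouse embryonic stem cells. The 7 genes were chosen by symbol, as enzymes and transporters of GABA, from the 34968 gene symbols shared by all 4 libraries. They are Gad1, Gad2, Slc32a1, Slc6a11, Slc6a13, Abat and Aldh5a1. Of these, 5 reached at least 1 TPM (the deposited abundance, relative to transcript length and library total) in at least 2 libraries and were tested among 12975 genes. Slc6a11 and Slc6a13 did not and are described by their values.

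The cells came from a Dlx6-Cre; Ai9 parental line on a C57/BL6 background, in which Dlx6a-driven Cre leaves a permanent tdTomato label in neurons of the ventral forebrain. Both lines carry Nkx2-1 under a Nestin promoter, which also drives the tetracycline transactivator, and Dlx2 under a promoter that answers to it. The N/D line carries only these factors, and the N/D/S line carries St18 (V5-tagged) beside Dlx2. Each line was selected as drug-resistant clones, so a difference between the lines can also be a difference between clones, and these cannot be told apart here. Cells were differentiated for 12 days as floating embryoid bodies with XAV-939 and SAG, tdTomato+ neurons were sorted, and 2 libraries were made for each line. The labels number the libraries but do not say whether they come from separate cultures, so the p-values reflect only variation among these libraries. The limma model also draws the variance of each gene towards a value shared by all tested genes. A gene with little spread of its own can therefore still have a wide standard error. N/D and N/D/S name the libraries as labelled throughout, since St18 itself did not separate them, at 28.5 and 26.6 TPM under the N/D label and 44.4 and 15.9 TPM under the N/D/S label, in replicate order. Whether these TPM include reads from the St18 transgene is not given in the sources used here, so they do not show whether the transgene was induced.

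GABA is made from glutamate by glutamate decarboxylase, which vertebrate neurons have in 2 forms, encoded by Gad1 and Gad2. The vesicular carrier encoded by Slc32a1 loads GABA into synaptic vesicles, carriers of the Slc6 family in the cell membrane take it up again after release, and the mitochondrial enzymes encoded by Abat and Aldh5a1 turn it by way of succinic semialdehyde into succinate. In the developing ventral forebrain, Dlx factors are known to switch on Gad genes, and neurons of the medial ganglionic eminence express both Gad genes while they are still migrating.

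Gad1 and Gad2 lie on chromosome 2 of GRCm38, Gad1 at chr2:70553072-70602014 and Gad2 at chr2:22622205-22693874, both on the plus strand. Slc32a1 lies on the same chromosome and strand, at chr2:158610767-158615748. The DNA just before the RefSeq starts of both Gad genes is shown because Dlx2, a homeodomain protein induced in both lines, belongs to a class of factors known to bind DNA with a TAAT core. Each stretch (RefSeq, GRCm38.p6, plus strand) runs from 250 bases before the start to the first base covered by any GENCODE M21 exon, with the letters TAAT, or ATTA on the other strand, in capitals. For Gad1 this is chr2:70561879-70562041, and for Gad2 chr2:22622077-22622204.
Gad1: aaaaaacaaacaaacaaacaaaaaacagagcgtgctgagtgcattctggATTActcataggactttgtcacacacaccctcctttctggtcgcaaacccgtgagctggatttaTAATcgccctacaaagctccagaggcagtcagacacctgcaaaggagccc
Gad2: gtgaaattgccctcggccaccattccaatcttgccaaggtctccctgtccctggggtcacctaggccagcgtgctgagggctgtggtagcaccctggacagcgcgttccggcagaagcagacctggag
The core was found 2 times in the 250 bases before the Gad1 start and 0 times in those before the Gad2 start. Of all 32851 RefSeq promoter windows of that length, 54.9% held it on either strand, so the match is a description of the letters and not of a binding site.

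The library labelled N/D replicate 1 stood apart from the others before any GABA gene was considered. It had 13485 genes above 0, against 17197 to 20855 in the other libraries. Among 6139 genes that reached 10 TPM in all of the others, 613 were at 0 in it, against 0 to 2 in the corresponding counts for the others. A value of 0 may therefore be a failed estimate, and results are given with and without this library. Same-numbered files share one symbol list and differently numbered files do not, so differences within each replicate number are given beside those over all libraries. TPM keep no read counts, so the depth behind each value is unknown.

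The sorted cells carried both Gad transcripts in every library, and the lines did not differ in them beyond the spread between libraries. In bulk libraries such as these, fewer cells of a type and less RNA per cell cannot be told apart. In N/D, Gad2 was at 141 TPM in replicate 1 and 83.7 TPM in replicate 2, and in N/D/S at 169 TPM in replicate 1 and 42.0 TPM in replicate 2. Both N/D values lay between the N/D/S values, so the lines overlapped. By rank among the tested genes, Gad2 was above 90.1% and 82.8% of genes in the N/D libraries and above 91.1% and 76.8% in the N/D/S libraries, in replicate order. The difference in log2(TPM + 1), with N/D taken from N/D/S and called the log2 fold change from here on, was −0.36 (limma, standard error 1.11, Benjamini-Hochberg adjusted p = 1). Without the library labelled N/D replicate 1 it was 0.01, and without N/D replicate 2 it was −0.73. Leaving out N/D/S replicate 1 gave −1.35 and leaving out N/D/S replicate 2 gave 0.63.

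In N/D, Gad1 was at 27.4 TPM in replicate 1 and 97.8 TPM in replicate 2, and in N/D/S at 51.6 TPM in replicate 1 and 31.8 TPM in replicate 2. Here the lines were nested the other way round, with both N/D/S values inside the range of the N/D values. The N/D libraries differed 3.57-fold from each other and the N/D/S libraries 1.62-fold. The log2 fold change was −0.35 (limma, standard error 1.08, Benjamini-Hochberg adjusted p = 1). Without the library labelled N/D replicate 1 it was −1.25, without N/D replicate 2 it was 0.55, and the call did not change in either.

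**Figure D1:**
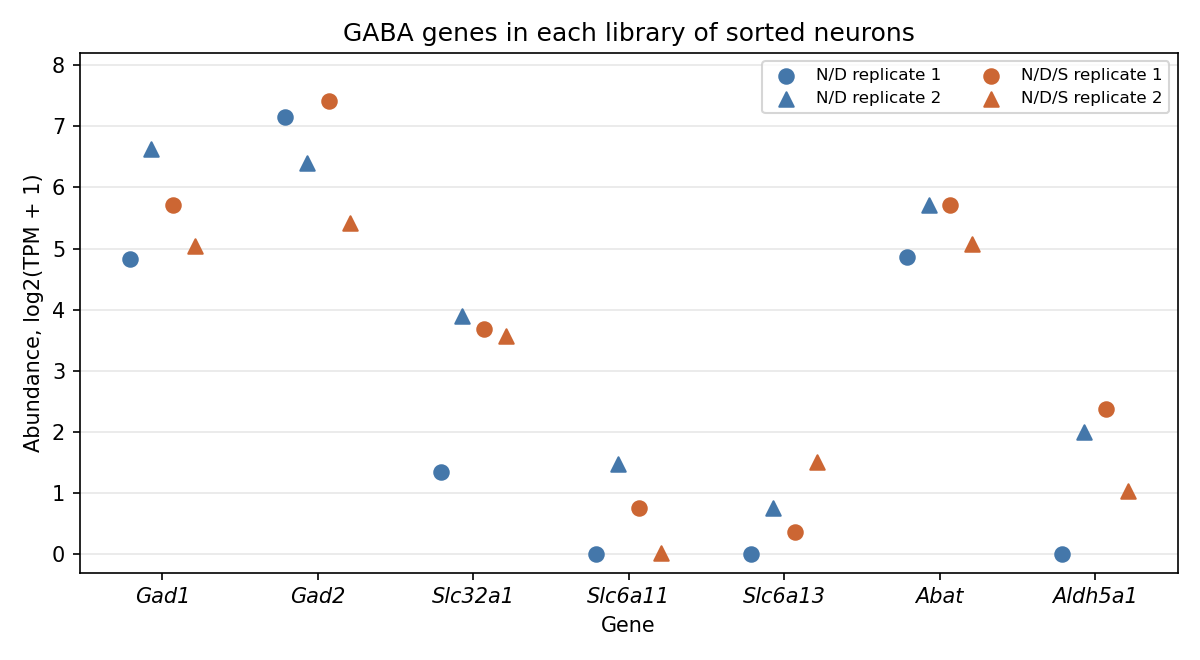
Abundance of the 7 GABA genes in the 4 libraries, as log2(TPM + 1) on the vertical axis and by gene on the horizontal axis. Colour gives the line and shape the replicate number, each point is 1 library, and the N/D and N/D/S points overlap for every gene.

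The balance of the Gad genes within a library does not depend on scaling between libraries, and TPM, being per length, can be compared between genes. Gad1 was 0.195 times Gad2 in N/D replicate 1 and 1.17 times Gad2 in N/D replicate 2. In the N/D/S libraries, Gad1 was 0.306 times Gad2 in replicate 1 and 0.758 times in replicate 2. Both replicate 1 libraries therefore had the lower ratios and both replicate 2 libraries the higher ones, whichever line they came from. The mean log2 ratio was −1.07 ± 1.83 in N/D and −1.05 ± 0.926 in N/D/S (SD, n = 2 each), a difference of 0.01 with p = 1 in a two-sided exact permutation test, whose smallest possible p with 2 libraries against 2 is 0.333. Without N/D replicate 1 the difference was −1.28, and without N/D replicate 2 it was 1.31. Leaving out N/D/S replicate 1 gave 0.67 and leaving out N/D/S replicate 2 gave −0.64, so its sign depended on the library left out. Gad1 has 8 annotated transcripts and Gad2 has 2, and how the authors summed transcripts into a gene value is not given in the sources used here. The part of the differing symbol lists in this ratio was not tested.

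**Figure D2:**
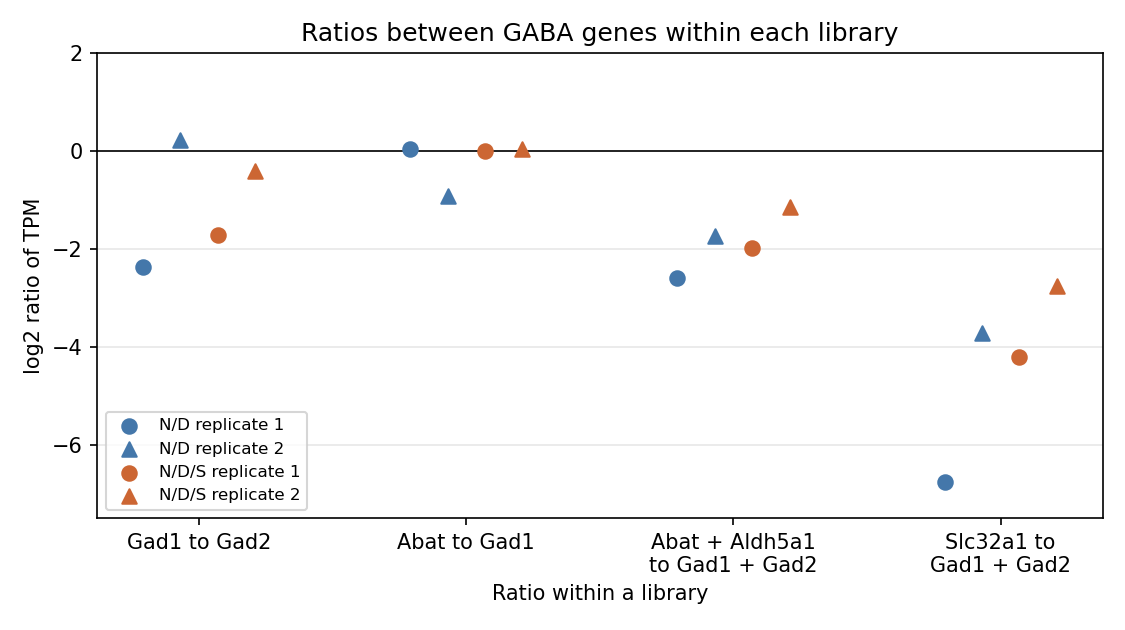
Ratios between GABA genes within each library, as log2 of the TPM ratio on the vertical axis, for 4 ratios on the horizontal axis. Each point is 1 library, and Gad1 to Gad2 is lower in both replicate 1 libraries (−2.36 and −1.71) than in both replicate 2 libraries (0.22 and −0.40).

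Slc32a1, the vesicular carrier, was less abundant than either Gad gene in every library. It was at 1.55 and 13.9 TPM in N/D and at 11.9 and 10.9 TPM in N/D/S, in replicate order. The library labelled N/D replicate 1 was low and the other libraries were close together, with the N/D/S libraries only 1.09-fold apart. Relative to Gad1 and Gad2 together, Slc32a1 was at 0.00924 in N/D replicate 1 and between 0.0540 and 0.147 in the others. Its log2 fold change was 1.01 (limma, standard error 1.17, Benjamini-Hochberg adjusted p = 1), the highest among the tested GABA genes. Without N/D replicate 1, the low library, it was −0.27. Without N/D replicate 2 it was 2.28 (limma, Benjamini-Hochberg adjusted p = 0.165, the lone N/D library being assumed to vary like the N/D/S libraries).

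The membrane carriers were near the bottom of the measured range. Slc6a11, a GABA carrier best known from astrocytes (chr6:114131241-114249952), was listed at 0 and 1.79 TPM in N/D and was at 0.693 and 0.0112 TPM in N/D/S, in replicate order. Slc6a13, a GABA carrier best known from the leptomeninges, liver and kidney (chr6:121300227-121337733), was listed at 0 and 0.688 TPM in N/D and was at 0.283 and 1.85 TPM in N/D/S. Each gene passed 1 TPM in a single library, which was N/D replicate 2 for Slc6a11 and N/D/S replicate 2 for Slc6a13.

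Marker lists of the cell types that these carriers are known from were not level between the libraries. The summed TPM of 8 astrocyte markers was 5.82 and 105 in the N/D libraries and 43.9 and 92.3 in the N/D/S libraries, in replicate order. In N/D replicate 1, 7 of the 8 were under 1 TPM, against 0 of the 8 in N/D replicate 2, and Aqp4, a water channel of astrocytes, was above 0 only in the latter, at 1.32 TPM. The 8 leptomeningeal and mesenchymal markers summed to 0.0778 and 48.1 TPM in N/D and to 8.67 and 29.1 TPM in N/D/S. The 8 oligodendrocyte lineage markers summed to 0.00315 and 195 TPM in N/D and to 18.3 and 63.8 TPM in N/D/S, and 6 pluripotency markers to 0.247 and 194 TPM in N/D and to 3.76 and 329 TPM in N/D/S. In N/D replicate 1, all 8 oligodendrocyte and all 6 pluripotency markers were under 1 TPM, against 2 and 1 of them in N/D replicate 2, 6 and 5 in N/D/S replicate 1, and 3 and 0 in N/D/S replicate 2. Both replicate 2 libraries were thus the higher ones for these 4 lists, as they were for the Gad1 to Gad2 ratio. Neural progenitor markers summed to 463 and 1213 TPM in N/D and to 505 and 704 TPM in N/D/S, but Fabp7 carried this order, at 134 and 906 TPM in N/D and 179 and 506 TPM in N/D/S. The other 7 progenitor markers summed to 330 and 307 TPM in N/D and to 326 and 198 TPM in N/D/S. Endothelial markers summed to 38.8 and 2.90 TPM in N/D and to 5.27 and 8.11 TPM in N/D/S, most of it Pecam1, and the glutamatergic markers, most of which were near 0, to 17.3 and 4.78 TPM and to 20.7 and 1.28 TPM. The cells had been sorted for tdTomato, a gate meant to keep only Dlx6a-Cre lineage cells, and the part of other cells in the Slc6a11, Slc6a13 and Gad1 values was not tested.

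**Figure D3:**
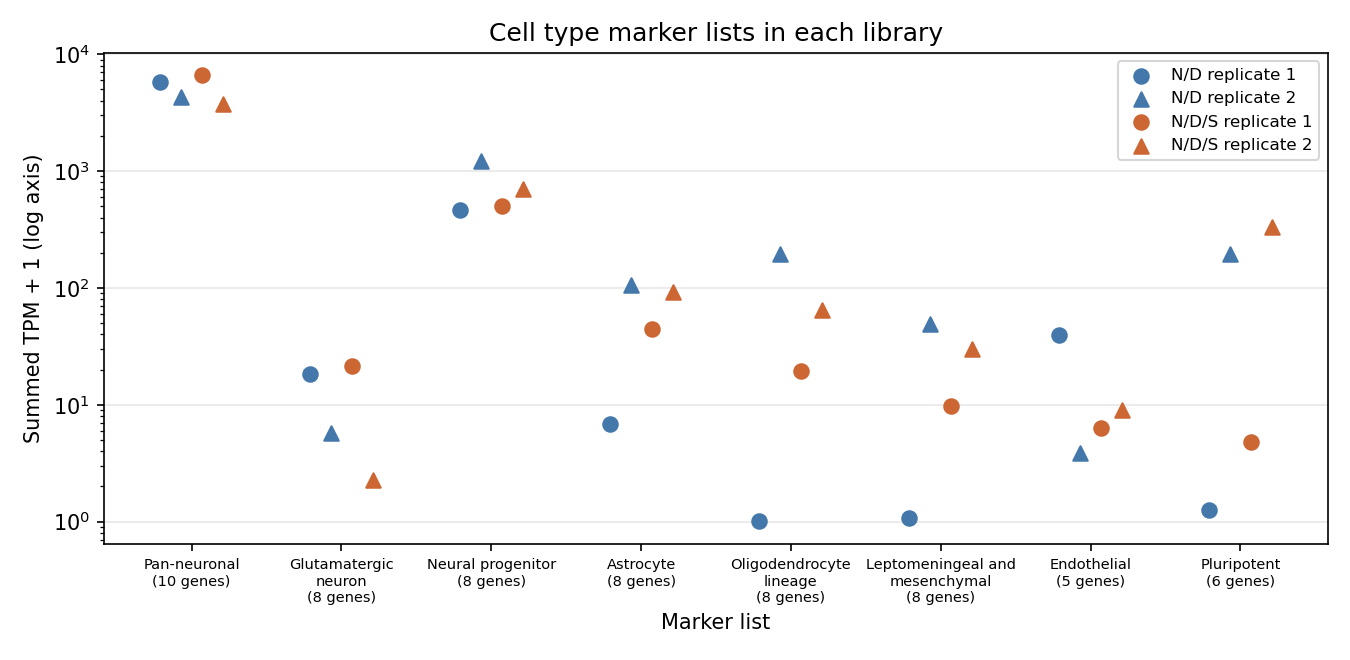
Summed TPM + 1 of 8 cell type marker lists on a log axis, by list on the horizontal axis. Each point is 1 library, and for the astrocyte, oligodendrocyte, leptomeningeal and pluripotent lists both replicate 2 libraries (triangles) lie above both replicate 1 libraries (circles).

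Among the breakdown enzymes, Abat was well expressed and Aldh5a1 was not. Abat, the transaminase that turns GABA into succinic semialdehyde (chr16:8513429-8621568), was at 28.0 and 51.8 TPM in N/D and at 51.7 and 32.6 TPM in N/D/S. Its level was the steadiest of the tested GABA genes, with a residual standard deviation of 0.541 on the log2 scale against 0.962 to 1.27 for the others. The log2 fold change was 0.11 (limma, standard error 0.997, Benjamini-Hochberg adjusted p = 1), and −0.33 without N/D replicate 1. Abat and Gad1 were at nearly the same level in 3 libraries, with ratios of Abat to Gad1 of 1.02 in the first N/D library and of 1.00 and 1.02 in N/D/S. In N/D replicate 2, where Gad1 was highest, the ratio was 0.529.

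Aldh5a1, the dehydrogenase of the next step (chr13:24907579-24937661, minus strand), was at 0.00286 and 2.99 TPM in N/D and at 4.18 and 1.06 TPM in N/D/S, in replicate order. A value under 0.01 TPM in N/D replicate 1 was shared by 29.3% of all tested genes. The log2 fold change was 0.71 (limma, standard error 1.15, Benjamini-Hochberg adjusted p = 1), and −0.29 without that library. Both breakdown enzymes together were at 0.166 and 0.302 times both Gad genes together in N/D and at 0.254 and 0.456 times in N/D/S, in replicate order. The mean log2 ratio was −2.16 ± 0.607 in N/D and −1.56 ± 0.598 in N/D/S (SD, n = 2 each), a difference of 0.60 with p = 0.667 in a two-sided exact permutation test. Within replicate number, N/D/S was higher by 0.61 in replicate 1 and by 0.60 in replicate 2, while the lines overlapped. Without N/D replicate 1 the difference was 0.17.

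Set in order of TPM, Gad2 was the most abundant of the 7 genes in 3 libraries and Gad1 in N/D replicate 2. The ranges of Gad2 (42.0 to 169 TPM), Gad1 (27.4 to 97.8 TPM) and Abat (28.0 to 51.8 TPM) overlapped. Within libraries, Gad2 was above Abat in all 4, above Gad1 in 3, and Abat was above Gad1 in 3. Slc32a1, at 1.55 to 13.9 TPM, was below that range in every library. Aldh5a1, at 0.00286 to 4.18 TPM, came next and overlapped with Slc32a1, Slc6a11 and Slc6a13.

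Over the tested GABA genes, 0 of 5 differed between the lines by limma at a Benjamini-Hochberg adjusted p below 0.05, and 0 of 5 had an unadjusted p under 0.05. Over all 12975 tested genes, 0% passed the adjusted threshold in either direction and 0.0617% had an unadjusted p below 0.05. The log2 fold change was above 0 for 3 of the 5 (Slc32a1, Abat and Aldh5a1) and below 0 for 2 (Gad1 and Gad2). Their median was 0.11, beside 0.26 over all tested genes. Without the library labelled N/D replicate 1, 1 of the 5 (Gad2) was above 0 and the median was −0.29, beside −0.29 over all tested genes. The N/D and N/D/S values overlapped for all 7 genes, 5 of them tested. Among all tested genes, 16.9% had values that did not overlap, and with 5 genes the absence of such a gene is no result about the members. Both N/D/S values lay between the N/D values for 4 of the 7 (Gad1, Slc32a1, Slc6a11 and Abat), 3 of them tested, against 22% of all tested genes.

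The sign of the difference depended on the replicate number. In replicate 1, N/D/S was above N/D for 7 of the 7 genes, where 72.5% of all tested genes were above. In replicate 2, N/D/S was below N/D for 6 of the 7, all but Slc6a13, where 74.7% of all tested genes were below. The pair of signs held by the 5 tested GABA genes, above in replicate 1 and below in replicate 2, was held by 56.6% of all tested genes.

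**Figure D4:**
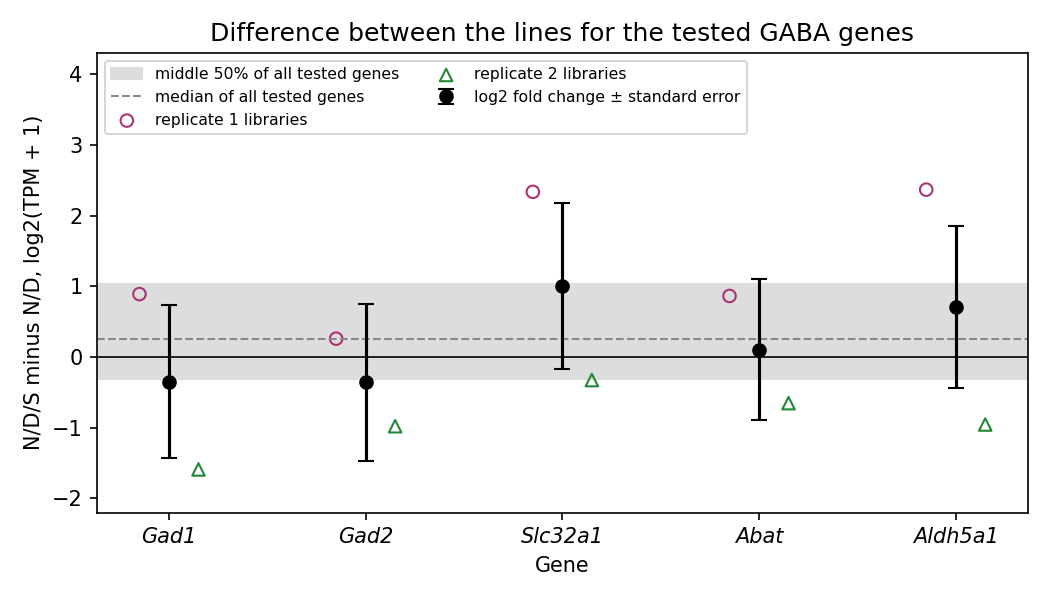
N/D/S minus N/D on the log2(TPM + 1) scale for the 5 tested GABA genes, with filled points for the log2 fold change over all libraries and bars for its standard error. Open circles are replicate 1 (all above 0), open triangles are replicate 2 (all below 0), and the grey band (−0.31 to 1.03) holds the middle 50% of all tested genes.

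Genes with the profile most like that of a GABA gene over the 4 libraries were sought among those with a mean of at least 10 TPM, by the root mean square difference of centred log2(TPM + 1) values. For Gad1, these were Scg2, encoding a secretogranin of dense-core vesicles (0.0705), Id2, encoding an inhibitor of basic helix-loop-helix factors (0.0855), and Trrap, encoding a scaffold of histone acetyltransferase complexes (0.118). For Gad2, they were the chromatin remodeller gene Chd1 (0.0596), the bicarbonate carrier gene Slc4a7 (0.0694) and the kinase gene Map3k3 (0.0718). For Slc32a1, they were Noa1 (0.0307), a mitochondrial GTPase gene, Senp3 (0.0564), a SUMO protease gene, and Tusc2 (0.0899). Gad2 itself ranked 4661 of 7804 genes by likeness to Gad1, at a difference of 1.01. With only 4 libraries, such likeness is a description.

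For glutamate, from which GABA is made, 15 genes of glutamate and glutamine supply were listed. Of the 14 tested, 0 passed the adjusted threshold from limma, 0 had an unadjusted p under 0.05, and 7 had a log2 fold change above 0, with a median of 0.03 (2 above 0 and a median of −0.38 without N/D replicate 1). Got2, the mitochondrial aspartate aminotransferase, was separated between the lines, at 249 and 267 TPM in N/D and at 361 and 295 TPM in N/D/S. Values with both N/D/S libraries above both N/D libraries were found for 8.69% of all tested genes. Its cytosolic counterpart Got1 was listed at 0 in N/D replicate 1 and was at 40.1 to 64.6 TPM in the other libraries.

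Around the breakdown route, 8 genes were listed, for other reactions of succinic semialdehyde and for steps to and from succinate. Among them, Ogdh and the succinyl-CoA synthetase genes lead to succinate from oxoglutarate and not from succinic semialdehyde. Of the 8, 7 were tested, 0 passed the adjusted threshold, and all 7 had a log2 fold change above 0, with a median of 0.64. Without N/D replicate 1, 4 of the 7 were above 0 and the median was 0.02. In N/D replicate 1, 4 of the 8 were under 1 TPM, against 0 or 1 elsewhere. There Sucla2, a subunit of succinyl-CoA synthetase, was listed at 0 against 37.7 to 123 TPM in the other libraries, and Ogdh, the oxoglutarate dehydrogenase, was at 0.00397 TPM against 64.6 to 114 TPM. Suclg1, the shared subunit of succinyl-CoA synthetase, was higher in both N/D/S libraries, at 174 and 181 TPM against 160 and 148 TPM in N/D. It did not pass the test, with a standard error of 0.954 beside its own residual standard deviation of 0.0631. This 1 of 7 stands beside 8.69% of all tested genes, and is no result about the list. Akr7a5, which reduces succinic semialdehyde, was at 36.3 and 56.1 TPM in N/D and at 51.7 and 142 TPM in N/D/S.

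Genes of cofactor supply and of other routes to GABA gave 0 of 7 tested genes past the adjusted threshold, with a median log2 fold change of 0.12 (−0.51 without N/D replicate 1). Pdxk, the kinase of pyridoxal, whose phosphate glutamate decarboxylase and the transaminase need, was lower in both N/D/S libraries, at 5.83 and 4.94 TPM against 6.77 and 8.05 TPM in N/D, as were 8.23% of all tested genes. Pdxp, which dephosphorylates pyridoxal phosphate, was higher in both N/D/S libraries, as were 8.69% of all tested genes. It was at 144 and 220 TPM against 0.0173 and 131 TPM in N/D, where the first value is that of the library with many genes at 0.

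Of 11 other Slc6 and vesicular amino acid carriers, 6 were tested, 0 passed the adjusted threshold, and the median log2 fold change was 0.32 (−0.34 without N/D replicate 1). Slc6a6, the taurine carrier, which also takes up GABA weakly, was the most abundant, at 168 and 59.4 TPM in N/D and at 131 and 35.9 TPM in N/D/S. It was thus 35.9 TPM or more where Slc6a11 and Slc6a13 were under 2 TPM. Slc6a8, the creatine carrier, was the one tested carrier whose values did not overlap between the lines, at 9.32 and 8.36 TPM in N/D and 6.64 and 4.26 TPM in N/D/S. This 1 of 6 stands beside 16.9% of all tested genes, and is no result about the carriers. Slc6a12, the betaine and GABA carrier, was listed at 0 in 3 libraries and at 0.0273 TPM in N/D/S replicate 1. Slc17a6, the vesicular glutamate carrier that marks glutamatergic neurons, was at 13.8 and 2.44 TPM in N/D and at 18.4 and 0.727 TPM in N/D/S. Gad1 and Gad2 together exceeded it 12.2-fold and 74.2-fold in N/D and 12.0-fold and 101-fold in N/D/S, in replicate order. Slc32a1, the vesicular GABA carrier, was below Slc17a6 in both replicate 1 libraries (1.55 against 13.8 TPM in N/D and 11.9 against 18.4 TPM in N/D/S) and above it in both replicate 2 libraries.

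Transcription factors of the subpallial GABAergic lineage gave 0 of 15 tested genes past the adjusted threshold from limma, with 11 above 0 and a median of 0.35. Without N/D replicate 1, 5 were above 0 and the median was −0.46. The values of Gsx1, Gsx2 and Maf did not overlap between the lines, nor did those of 16.9% of all tested genes. Gsx1, a homeobox gene of ganglionic eminence progenitors, was at 3.61 and 2.95 TPM in N/D/S and at 0 and 1.78 TPM in N/D. Its relative Gsx2 was at 2.68 and 1.34 TPM in N/D/S and at 0 and 0.443 TPM in N/D, so it passed the filter on low values only through N/D/S and its separation is no support for a difference. Maf, a factor of interneurons from the medial ganglionic eminence, was at 7.47 and 1.35 TPM in N/D/S and at 26.7 and 10.5 TPM in N/D. Dlx2, carried by both lines as a transgene, was at 71.1 and 188 TPM in N/D and at 259 and 148 TPM in N/D/S. Dlx5 was level, at 136 and 191 TPM in N/D and 206 and 189 TPM in N/D/S. Lhx6, a marker of neurons from the medial ganglionic eminence, was at 30.8 and 74.9 TPM in N/D and 115 and 33.0 TPM in N/D/S. Gad1 and Lhx6 were lowest in N/D replicate 1, as were 56.3% of all tested genes. Whether TPM of Dlx2 and Nkx2-1, like those of St18, include reads from the transgenes is not given in the sources used here.

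The label of the sorted cells as neurons was checked on 10 pan-neuronal genes, all of which were above 1 TPM in every library. Their summed TPM was 5739 and 4277 in N/D and 6611 and 3779 in N/D/S, in replicate order. Of the 10, 1 (Tubb3) had a log2 fold change above 0, and the median was −0.51, beside 0.26 over all tested genes. Without N/D replicate 1 the median was −0.64, beside −0.29 over all tested genes. The values of Tubb3 (higher in N/D/S), Rbfox3 and Elavl3 (both lower) did not overlap between the lines, nor did those of 16.9% of all tested genes. N/D/S replicate 2, which had the lowest sum, was also the library with the lowest Gad2, and the part of neuronal content in the Gad values was not tested.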

How the data were processed

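Bulk RNA-seq libraries of tdTomato+ neurons from 2 lines, N/D and N/D/S, with 2 libraries each, were analysed. The authors deposited one table per library with transcript abundances (TPM, relative to transcript length and library total) for each gene symbol, made with kallisto 0.44.0 against a mouse transcriptome (GRCm38 in the submitters' processing notes), without stated scaling between libraries. TPM hold no read counts, so the depth and the precision it would give are not known.

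Tables were joined on symbol, leaving out 26 rows per table with symbols turned into dates or listed more than once. The labels gave each library its line and number. Genes reaching 1 TPM in 2 or more libraries were fitted with limma 3.58.1 in R 4.3.3 on log2(TPM + 1), without covariates, with Benjamini-Hochberg adjustment over all tested genes and a threshold of 0.05. The fit was tested on simulated data, with a pass condition set only for a small fixed spread. That check does not measure the power of the fit at the spread seen here. Ratios within libraries were compared by exact permutation. Named genes are the 7 GABA genes, lists of pathway genes, transcription factors and cell type markers, St18, and the 3 genes nearest in profile to Gad1, Gad2 and Slc32a1. The members and lists were chosen with earlier results of these data known. Gene positions are from GENCODE M21 (GRCm38) and promoters from RefSeq (GRCm38.p6), with a window for 6 of the 7 genes. Alternatives covered pseudocounts, filters, scalings, a variance trend, replicate blocks and each library left out. Python 3.11.15, pandas 2.3.3, numpy 2.4.6 and matplotlib 3.10.9 were used for the rest. Values of some listed genes are withheld for evaluation and are not reported here.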

Additional observations from a re-analysis of the deposited data

How the results depend on the processing

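For 11 results, 148 alternative values were computed, of which 10 changed the direction of a tested result and 14 moved a count by over 1.5 times. The other 124 kept direction and call, or, for the pathway median, stayed within the 0.942 SD between libraries, which allowed a change of sign. For these the cause was not tested. With all libraries, Aldh5a1 was the tested gene that changed direction, to −0.25 with quantile normalization (up to 1.98 with a pseudocount of 0.1), the pathway median went from 0.34 to −0.02 when every library had to reach 1 TPM, and the log2 fold changes ranged from −0.40 to −0.02 for Gad1, −0.41 to −0.02 for Gad2, 0.13 to 1.25 for Slc32a1 and 0.06 to 0.44 for Abat, the values nearest 0 for both Gad genes coming from upper quartile scaling. With one library left out, they ranged from −1.25 to 0.55 for Gad1, −1.35 to 0.63 for Gad2, −0.27 to 2.28 for Slc32a1, −0.33 to 0.54 for Abat and −0.29 to 1.70 for Aldh5a1, the difference in the Gad1 to Gad2 log2 ratio from −1.28 to 1.31, that of breakdown to synthesis from 0.17 to 1.03, and the pathway median from −0.46 to 1.14. The lowest adjusted p of a GABA gene in any alternative was 0.165 (limma, Benjamini-Hochberg).

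Over all genes, the variance trend gave 5 genes higher and 1 lower at the adjusted threshold, none of them among the 7 GABA genes, and leaving out one library gave 0 to 2213 higher and 0 to 160 lower, the upper ends without N/D replicate 2. Genes at an unadjusted p under 0.05 (8 as reported) numbered 18 with a pseudocount of 0.1 and with median-of-ratios scaling, 207 without a filter, 42 when every library had to reach 1 TPM, 72 with quantile normalization, 224 with the variance trend, and 3 to 3789 in the fits on 3 libraries. A change of scaling moved the median of all genes from 0.26 to 0.49 (upper quartile) and −0.05 (quantile normalization). Under the filter on every library, Aldh5a1 could not be fitted.

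Same-numbered files share a symbol list, but the labels do not say that a number marks a shared culture or batch. As deviations from the mean of their line, same-numbered libraries had a correlation of 0.02 across genes. With the replicate block, 9 genes had an unadjusted p under 0.05 and 0 passed the adjusted threshold, and no call on a GABA gene changed. The breakdown to synthesis difference was 0.60 with an exact p of 0.5, the smallest that 2 pairs allow.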
